A study of Arabidopsis thaliana with 18 samples.

Results

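The genes described here are nuclear Arabidopsis transcripts that fell at least 4-fold in wild-type seedlings on the herbicide norflurazon and changed downwards by less than 2-fold, or not at all, in both gun mutants tested. A probe set, the group of array probes for one transcript, was a member when the change in its mean log2(intensity + 1) was -2 or lower in the wild type Col-0 and above -1 in both gun1-9 and gun5. Control probe sets, the identifier range of the organelle genomes and several symbols of photosynthesis and gene-family genes were left out. Of 22746 probe sets, 170 were members, or 0.747%. They were 34.1% of the 498 nuclear probe sets that fell at least 4-fold in Col-0. Another 5 probe sets met the thresholds and were left out by symbol (PSBY, LHCB4.1, PSAE-1, PRK and UGT76E11). The annotation used names a single gene for 73 members, several genes for 2, and does not list 95. A symbol beyond the locus code exists for 9 members, so most genes are given by locus, with a role taken from general knowledge of that locus.

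Seedlings were grown for 5 days under continuous light of 100 µmol per m2 and s at 21 °C, on LS medium with 1% sucrose. The 6 groups of 3 biological replicates were Col-0, gun1-9 and gun5, each untreated or on plates with 5 µM norflurazon, 18 arrays in all. The labels name seedlings of one age, so a change can reflect fewer cells of a type or less RNA per cell, and these cannot be told apart. The labels do not say what the alleles change.

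Norflurazon blocks carotenoid synthesis, and without carotenoids light destroys the chlorophyll and membranes of developing chloroplasts. Damaged chloroplasts signal to the nucleus, which then lowers transcripts of proteins destined for photosynthesis. Mutants named gun, for genomes uncoupled, came from screens for plants that keep such transcripts high on norflurazon. The gene mutated in gun1 encodes a plastid protein with pentatricopeptide repeats. That mutated in gun5 encodes a subunit, H, of the magnesium chelatase that starts the chlorophyll branch of tetrapyrrole synthesis.

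The arrays had near-equal medians over all probe sets, and Pearson's r between arrays of a group, taken across probe sets as a description, was 0.992 or higher. The median intensity over the members was 385 on replicate 1 of untreated Col-0, against 475.5 and 479.5 on replicates 2 and 3. Without that array 192 probe sets met the rule, and without replicate 3 of the same group 151 did. Among the root markers chosen, 2 of 5 were measured and both were called higher in treated Col-0: PYK10, a root beta-glucosidase, went from 4940 to 6542, and EXPA7, a root-hair expansin, from 72.3 to 136. Of 5 stomatal lineage markers, 3 were measured. FAMA went from 10.1 to 8.39, SPCH from 13.8 to 11.6 and MUTE from 4.69 to 4.86, and none was called in Col-0. In gun1-9 EXPA7 was called higher, from 49.2 to 127, and FAMA lower, from 9.93 to 6.67, and in gun5 none of these 5 markers was called. The part of cell-type shares in the changes below was not tested.

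In treated Col-0 the members kept a median of 18.4% of their untreated level, with a range from 0.254% to 24.9%. In gun1-9 they kept a median of 66.7% (50.1% to 264%) and in gun5 73.0% (50.2% to 315%). The median over the members of the mean intensity went from 447.9 to 77.5 in Col-0, from 432 to 329 in gun1-9 and from 438 to 337 in gun5. Over all probe sets it stayed between 15.2 and 16.3 in the 6 groups. The members were chosen by these responses, so they are given as a description, with no test.

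On the log2 scale the median change was -2.43 in Col-0 (quartiles -2.77 and -2.16). It was -0.58 for gun1-9, with quartiles at -0.76 and -0.32, and -0.45 for gun5, with quartiles at -0.71 and -0.20. The median over all probe sets was 0.03, 0.02 and 0.04. A label of repression in the wild type only goes against the values of most members in the mutants. In limma, 119 of the 170 were called lower in treated gun1-9, where 15.7% of all probe sets were, and 106 in gun5, where 13.2% were. Falls were called in both mutants for 93 members and in neither for 38, with no share of all probe sets counted beside these. In Col-0 all 170 were called lower, where 15.1% of all probe sets were. The rule used these contrasts, and nothing is read from the counts or shares. By the values themselves, most members were lower on norflurazon in the mutants too, by under 2-fold, and a few were at or above their untreated level.

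**Figure D1:**
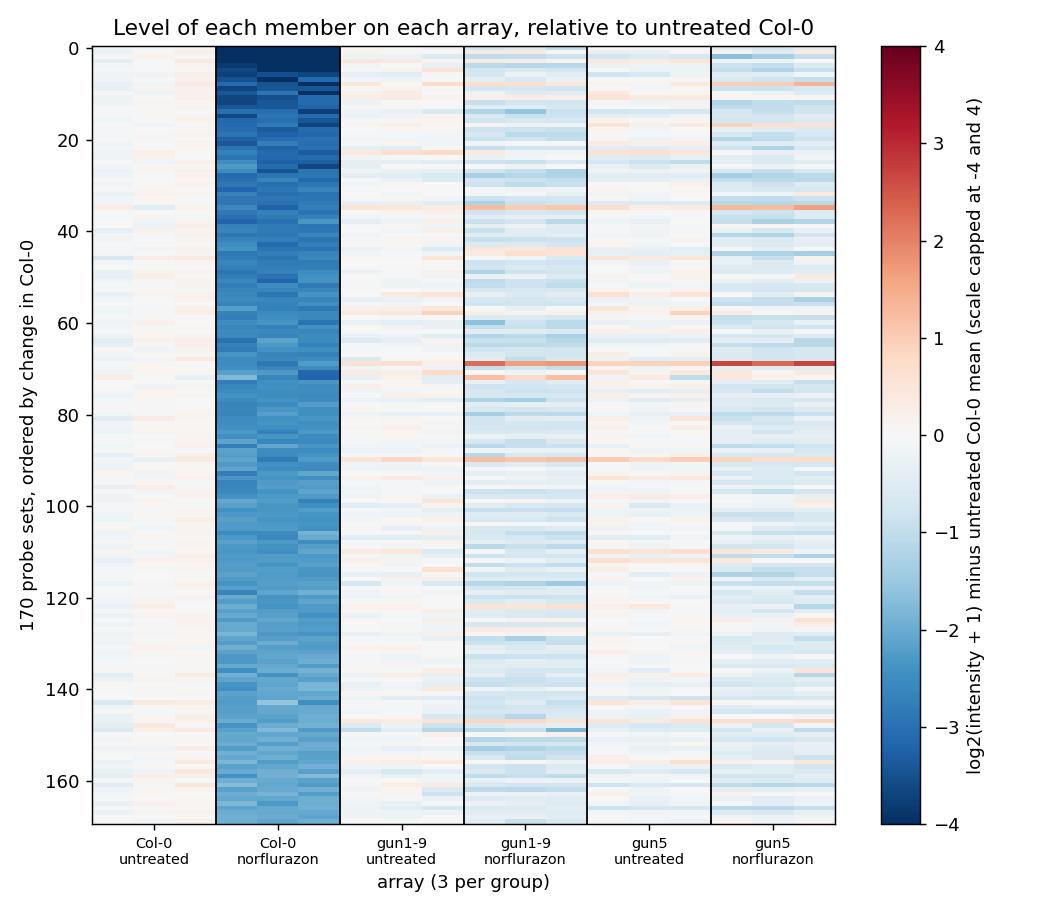
Level of each of the 170 members (rows, ordered by their change in Col-0) on each of the 18 arrays (columns, 3 per group), as log2(intensity + 1) minus the untreated Col-0 mean, with colours capped at -4 and 4. Treated Col-0 is the dark blue block, treated gun1-9 and gun5 are mostly pale blue, and a few rows are red in both treated mutants.

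Members were spread over the space that the rule allows. A change within 0.25 of 0 in both mutants was found for 13 members, and a change of -0.5 or lower in both for 57. The change was above 0 in 19 members in gun1-9, in 27 in gun5 and in 10 in both. It was more negative in gun1-9 than in gun5 for 107 of 170. Treated and untreated arrays of the same mutant overlapped for 29 members in gun1-9 and 38 in gun5. The 3 arrays of each group were apart for the others, as they were for 46.1% and 41.6% of all probe sets. In Col-0 they were apart for all 170, beside 49.1% of all probe sets.

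Set against treated Col-0, the median member was higher by 1.86 in treated gun1-9 (0.81 to 7.75) and by 1.95 in treated gun5 (0.95 to 7.98) on the log2 scale. All 170 were called higher in each, where 10.3% and 10.9% of all probe sets were. All 170 also had a higher response in each mutant than in Col-0, where 8.07% and 8.73% of all probe sets had one. The rule fixes the direction of the difference in response. It favours the direction between the treated levels without fixing it, because the untreated levels enter there too. The comparisons share the Col-0 arrays.

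**Figure D2:**
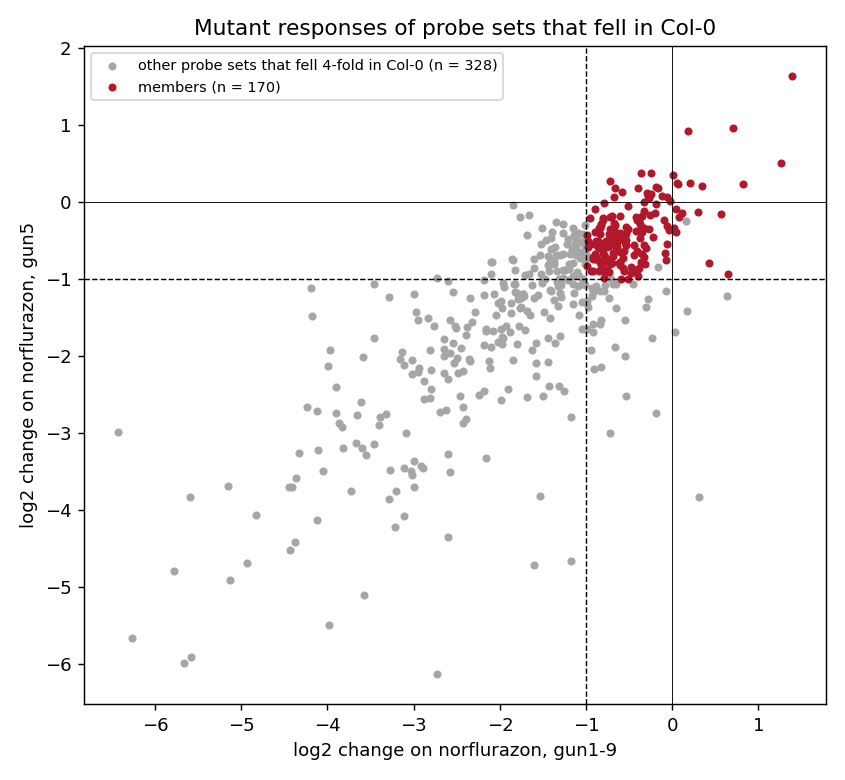
Log2 change on norflurazon in gun1-9 (horizontal) and gun5 (vertical) for the 498 nuclear probe sets that fell at least 4-fold in Col-0. The 170 members, in red, lie right of and above the dashed lines at -1. The 328 grey points, which include the 5 left out by symbol, are the other probe sets.

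The values of probe sets with a gene name nearest to each threshold are as follows. Inside the limit in Col-0 were AT3G15900 (-2.01), AT4G29590 (-2.02) and PSB27 (-2.02), and outside it AT1G49380 (-1.99), AT1G52510 (-1.98) and AOR (-1.98). Inside the limit in gun1-9 were AT1G20810 (-0.96), AT1G72030 (-0.94) and AT1G30260 (-0.90), and outside it AT1G29700 (-1.004), AT5G62840 (-1.01) and AT1G77090 (-1.02). Inside the limit in gun5 were AT5G13410 (-0.98), AT1G31920 (-0.92) and AT1G72030 (-0.89), and outside it AT4G33666 (-1.15), AT3G18500 (-1.15) and AT4G25780 (-1.16). Unnamed members lay nearer inside the limit of each mutant, with the lowest at -0.99 in both.

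Members with a known part in the photosynthetic complexes numbered 10, with median changes of -2.41 (Col-0), -0.67 (gun1-9) and -0.56 (gun5). This grouping by role, like those that follow, was made after the values were seen. A role was given to 40 of the 170 members. Another 33 with a gene name were given none, so the group counts do not describe the whole set. PSAN (AT5G64040), the lumenal subunit N of photosystem I, had intensities of 5250.5, 5532 and 5736 in untreated Col-0 and 754, 837 and 710.4 on norflurazon. In gun1-9 it went from 5444, 5878 and 6278 to 3145, 3539 and 3340.0, and in gun5 from 5856, 5619 and 5663 to 3372, 3011 and 3842. Every treated mutant array lay above every treated Col-0 array and below every untreated array. Its changes on the log2 scale, in the order Col-0, gun1-9 and gun5 used from here on, were -2.84, -0.81 and -0.75.

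ATPC1 (AT4G04640), the regulated gamma subunit of the chloroplast ATP synthase, showed the same order. It went from 4330.1, 4765 and 4844 to 825, 895 and 853 in Col-0, from 4648, 4407 and 4346 to 2756, 2838 and 2730.3 in gun1-9, and from 4879.6, 4256 and 4550.0 to 2931, 2695 and 3039 in gun5. The log2 changes were -2.44, -0.69 and -0.66, and the treated mutants overlapped each other. PSB27 (AT1G03600), which binds photosystem II during its assembly and repair, fell from 3315, 3505 and 3639.9 to 839.5, 835 and 898 in Col-0. In gun1-9 it read 3201, 3312 and 2942 without and 2406, 2519.9 and 2499 with norflurazon, and in gun5 3430.4, 2887 and 3207 without and 2887, 2565 and 2934 with it. The treated and untreated arrays of gun5 overlapped, and the log2 changes were -2.02, -0.35 and -0.18.

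TROL (AT4G01050), a thylakoid protein that tethers ferredoxin-NADP reductase, fell from 1409 ± 119 to 216 ± 26.4 in Col-0 (mean ± SD, n = 3 arrays). It went from 1279 ± 71.9 to 733 ± 49.8 in gun1-9 and from 1322 ± 86.6 to 888 ± 30.9 in gun5. PIFI (AT3G15840), a stroma protein linked to chlororespiration through the NDH complex, fell from 1200.0, 1382 and 1511 to 159.8, 179 and 183 in Col-0. It went from 1047, 982 and 910.2 to 558, 618 and 585 in gun1-9 and from 1012, 983 and 1004 to 534, 598 and 642 in gun5. No untreated array of either mutant reached the untreated Col-0 arrays of PIFI.

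The other members of these complexes and their accessory proteins had like values. A pair of grana proteins that are each needed for full non-photochemical quenching, AT1G74730 and AT5G08050, changed by -2.38 and -2.13 in Col-0, by -0.44 each in gun1-9 and by -0.55 and -0.69 in gun5. AT3G47070, a thylakoid phosphoprotein, had -2.22, -0.65 and -0.52. AT5G07020, a thylakoid protein that protects photosystem II in strong light, had -2.53, -0.72 and -0.40.

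Most genes of the photosynthesis lists have no value here, because the annotation used pairs few of them with a probe set, and unnamed members may include some. A gene is called measured below where a probe set names it alone. Of 35 listed photosystem and electron transport genes 5 were measured, and all 5 were called lower in each genotype. Of these, 4 met the thresholds, and PSAN and ATPC1 remained after PSAE-1 and PSBY were left out by symbol. Of 20 antenna genes 3 were measured and none is a member. LHCB4.1 met the thresholds with changes of -2.35, -0.16 and -0.84 and was left out by symbol, while LHCB4.2 (-4.14, -0.83 and -1.52) and LHCB4.3 (-3.26, -1.58 and -2.09) passed the limit in a mutant.

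Thylakoid lumen proteins gave 8 members, with median changes of -2.52 (Col-0), -0.82 (gun1-9) and -0.31 (gun5). In gun5 their changes ran from -0.98 to 0.18. The group holds 3 peptidyl-prolyl isomerases of the FKBP type, which help proteins fold. AT5G13410 had changes of -2.84, -0.79 and -0.98 and AT2G43560 of -2.56, -0.69 and -0.69. The remaining isomerase, AT1G20810, had a change of -0.96 in gun1-9 and -0.20 in gun5. A pair of PsbP-domain proteins, relatives of an extrinsic subunit of photosystem II, differed in gun5, with -0.68 for AT1G76450 and 0.18 for AT2G28605. AT5G52970 and AT4G24930, lumenal proteins of unknown action, had -0.84 and -0.83 in gun1-9, and in gun5 the values were -0.34 and -0.28.

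Pigment genes gave 3 members. HEME1 (AT3G14930), a uroporphyrinogen decarboxylase of tetrapyrrole synthesis, fell from 468, 524 and 597 to 88.8, 84.8 and 83.8 in Col-0. It went from 418, 439 and 474 to 325, 318 and 339 in gun1-9 and from 447, 486 and 508 to 298, 275 and 213 in gun5. The treated arrays of gun5 lay below those of gun1-9, and the log2 changes were -2.61, -0.44 and -0.88. The mutants were not called different, in their treated levels (limma adjusted p = 0.0716) or their responses (limma adjusted p = 0.141). Of 29 listed tetrapyrrole genes 9 were measured. In Col-0 8 were called lower, in gun1-9 7 lower and 1 higher, and in gun5 4 lower and 1 higher, HEME1 being the single member.

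AT2G35260, a thylakoid protein that promotes chlorophyll synthesis, fell from 368, 417 and 452 to 38.0, 59.3 and 48.3 in Col-0. In gun1-9 it read 401, 445 and 383 untreated and 374, 388 and 399 treated, and in gun5 522, 472 and 481 untreated and 288, 285 and 302 treated. The arrays overlapped in gun1-9 and were apart in gun5. AT1G64680, a homologue of the carotene isomerase of strigolactone synthesis, averaged 371 untreated and 382 treated in gun1-9, 375 untreated and 353 treated in gun5, and 399 untreated and 76.8 treated in Col-0. Its treated and untreated arrays overlapped in both mutants.

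Photorespiration, which recycles the product of oxygenation by Rubisco, gave 2 members. HPR (AT1G68010), the peroxisomal hydroxypyruvate reductase, fell from 3896, 3996 and 4375 to 845, 829 and 791 in Col-0. Its treated arrays read 4270.3, 3925 and 3785 in gun1-9 and 3832, 3587 and 3245 in gun5, against untreated arrays of 4334, 4337 and 4131 and of 4468, 3795 and 4217. Treated and untreated arrays overlapped in both mutants, and the log2 changes were -2.31, -0.10 and -0.23. The H protein of glycine decarboxylase (AT1G32470) kept less of its level, with 4326 ± 71.5 to 2673 ± 182 in gun1-9 and 4165 ± 287 to 2925 ± 69.4 in gun5, against 4234 ± 58.9 to 636 ± 19.6 in Col-0. Of 12 listed photorespiration genes 3 were measured, with 3 called lower in Col-0 and 1 in each mutant.

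Redox and detoxification proteins gave 4 members. GSTU18 (AT1G10360), a tau-class glutathione transferase, fell from 172, 226 and 238 to 15.5, 18.5 and 18.5 in Col-0. It went from 223, 233 and 223 to 130.1, 131 and 119.7 in gun1-9 and from 223, 194 and 221 to 115, 114 and 134 in gun5. The log2 changes were -3.52, -0.83 and -0.81, so that its fall in Col-0 was among the larger ones while its mutant changes lay near the limit. THX (AT1G50320), a plastid thioredoxin that reduces peroxiredoxins, fell from 1272 ± 169 to 293 ± 14.9 in Col-0 and went from 1180.2 ± 81.6 to 712 ± 31.1 in gun1-9 and from 1215 ± 150.3 to 884 ± 40.6 in gun5. Of 19 listed plastid thioredoxins and antioxidant enzymes 10 were measured. In Col-0 8 were called lower and 1 higher, in gun1-9 7 lower and 2 higher, and in gun5 6 lower and 0 higher.

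**Figure D3:**
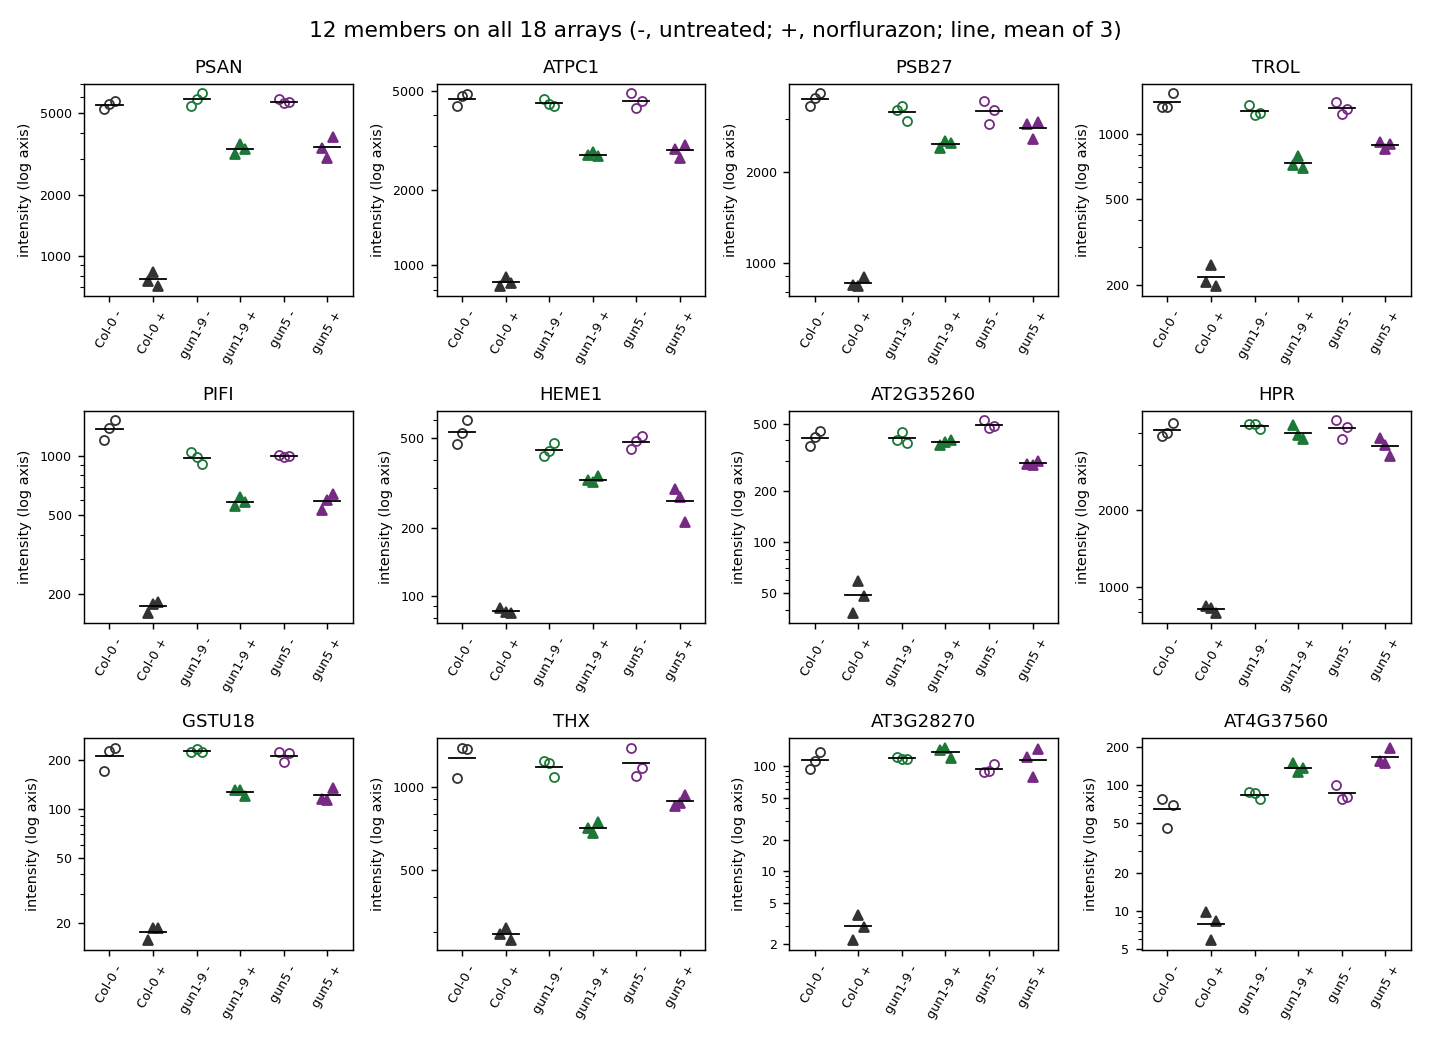
Intensity on a log axis of 12 members on all 18 arrays, with open circles for untreated and filled triangles for treated arrays and a line at each mean of 3. Treated Col-0 lies lowest in every panel, HPR and AT3G28270 overlap their untreated arrays in both mutants, and AT4G37560 lies above them.

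The largest fall of all members in Col-0 was that of the unnamed probe set 259161_at, from 6813, 7581 and 8020.4 to 21.2, 16.9 and 18.8, a log2 change of -8.55. In treated gun1-9 it read 4376, 4754 and 3753, and in treated gun5 5053, 4689.7 and 5377. Its changes in the mutants were -0.76 and -0.58, and every treated mutant array was above every treated Col-0 array.

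AT3G28270 had the largest fall among members with a gene name, from 93.8, 111 and 136 to 2.18, 3.83 and 2.92. The treated Col-0 level lies under the dim level of 3.79, the mean first quartile of all arrays, so the log2 change of -4.85 rests on values in the dim range. In gun1-9 it read 123, 116 and 117 untreated and 143, 150.5 and 119.7 treated, and in gun5 88.5, 90.4 and 106 untreated and 123, 78.5 and 146 treated. The arrays overlapped in both mutants. AT2G23840 and AT4G16880 were also under the dim level in treated Col-0, and no member was under it in untreated Col-0.

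AT1G78995 fell from 233, 275 and 235 to 7.97, 8.03 and 9.44 in Col-0, a change of -4.71, and changed by -0.61 and -0.65 in the mutants. AT1G72030, an acetyltransferase of the GNAT superfamily, had -3.99, -0.94 and -0.89. AT3G21670, a transporter of the nitrate and peptide family, fell from 269 ± 36.6 to 24.3 ± 4.86 in Col-0, while gun1-9 read 315 ± 20.0 untreated and 318 ± 11.3 treated. AT5G38510, a rhomboid-type protease that cuts proteins inside membranes, had -3.21, -0.68 and -0.33.

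Lipid enzymes among the members differed in how much of their level they kept in the mutants. AT1G27480, a lecithin:cholesterol acyltransferase-like enzyme, fell from 195, 221 and 221 to 43.0, 24.4 and 16.2 in Col-0 and had changes of 0.05 in gun1-9 and 0.25 in gun5. Of 2 class 3 lipases, which cleave acyl esters, AT5G24210 had -0.37 and -0.28 and AT2G42690 had -0.85 and -0.89. Among DNA-binding proteins, the MYB-related factor AT1G49010 had -2.77, -0.67 and -0.30 and the HMG-box and ARID-domain protein AT1G76110 -2.55, -0.51 and -0.34.

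In 10 members the treated level was above the untreated level in both mutants. The 4 of them with a gene name are AT3G28270, AT1G27480, AT3G12685 and AT4G37560. AT4G37560, a formamidase-type enzyme, fell from 77.5, 46.2 and 69.6 to 9.79, 5.86 and 8.32 in Col-0. It read 88.6, 86.3 and 77.4 untreated and 149, 128 and 136 treated in gun1-9, and 101, 77.1 and 80.6 untreated and 157, 151 and 199 treated in gun5. Its groups were apart in both mutants in the opposite direction to Col-0, with changes of -2.86, 0.70 and 0.96. The unnamed probe set 262113_at had changes of -2.54, 1.39 and 1.64. In all, 8 members were called higher in gun1-9, where 20.5% of all probe sets were, and 4 in gun5, where 15.7% were.

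The genotypes were also compared without norflurazon. The rule does not use this contrast, but it uses these arrays, and a high untreated Col-0 level favours membership, so the comparisons with Col-0 are not independent of the choice of members and are given as a description. The median difference over the members was -0.06 for gun1-9 against Col-0, -0.05 for gun5 against Col-0 and -0.01 for gun1-9 against gun5, and -0.004, -0.02 and 0.01 over all probe sets. In limma with Benjamini-Hochberg adjustment over all probe sets, 0 members were called in untreated gun1-9 against Col-0, where 0.145% of probe sets were called higher and 0.251% lower. At an unadjusted p under 0.05, 24 members were counted, beside 10.3% of all probe sets. Between the untreated mutants 0 members were called as well (0.0572% higher and 0.106% lower of all probe sets), with 18 members and 8.63% of all probe sets at an unadjusted p under 0.05.

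In untreated gun5 against Col-0, 3 members were called higher and 6 lower, where 0.87% and 0.8% of all probe sets were. An unadjusted limma p under 0.05 was found for 43 members, beside 12.2% of all probe sets. AT1G78995 was lower by 0.66 ± 0.15 on the log2 scale (SE of the limma fit). Its untreated gun5 arrays read 144, 168 and 155, all below the Col-0 arrays given above. PIFI was lower by 0.44 ± 0.10. Both calls were lost when any of the 3 untreated gun5 arrays was left out, and when replicate 2 or 3 of untreated Col-0 was, AT1G78995 also without replicate 1. The call of PIFI was lost as well in a fit on the 6 arrays compared alone. The unnamed probe set 262113_at was higher by 0.92 ± 0.17.

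The treated mutants were compared with each other. The rule uses these arrays and limits how far a member may fall in either mutant, but it does not set which of them is higher. The tests are thus not independent of the choice of members, and the p-values come from the fit across all probe sets. Treated gun1-9 was called higher than treated gun5 for 16 members and lower for 34, or 29.4% of the members. Of all probe sets 13% were called, 6.42% higher and 6.55% lower. The members' probe sets are brighter than most, as the medians of 447.9 and 15.5 in untreated Col-0 show, and the part of brightness in this share was not tested. The arrays of the treated mutants did not overlap for 94 members, beside 28.4% of all probe sets. The median difference over the members was -0.07, with a range from -0.83 to 1.79. With each array centred on its median the split was 13 higher and 39 lower, and 12.7% of all probe sets were called. Without replicate 3 of treated gun1-9, 32 members were called in place of 50, and 9.62% of all probe sets in place of 13%.

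**Figure D4:**
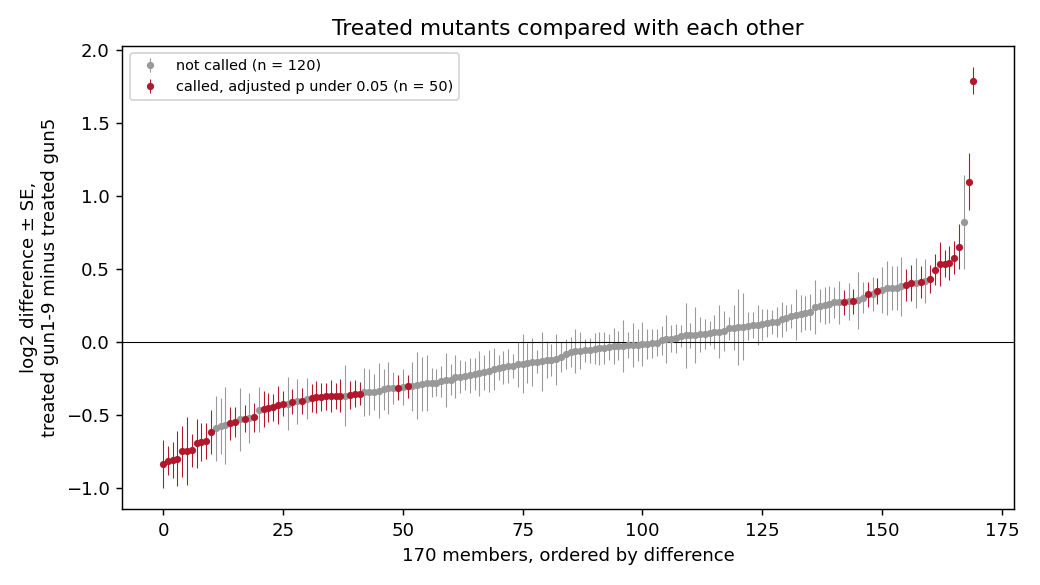
Difference in log2(intensity + 1) between treated gun1-9 and treated gun5 for the 170 members, in order of size, with the standard error of the limma fit from 3 arrays per group. The 50 called members, in red, lie at both ends, 34 below 0 and 16 above it.

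AT3G43540 read 131, 137 and 134 in treated gun1-9 and 243, 220.4 and 244 in treated gun5. The difference was -0.81 ± 0.10 (limma adjusted p = 2.49e-05, 4.38e-06 to 0.00125 over 25 alternatives). Its untreated arrays overlapped between the mutants, at 233, 211 and 256 and at 239, 220.2 and 253, and treated gun5 overlapped untreated gun5. AT1G20810, the lumenal isomerase with the larger fall in gun1-9, read 71.2, 76.5 and 85.5 in treated gun1-9 and 142, 124 and 143 in treated gun5, a difference of -0.81 ± 0.12 (limma adjusted p = 0.000221, 6.78e-05 to 0.00296).

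AT2G15020 read 107, 86.7 and 88.6 in treated gun1-9 and 188, 166 and 152 in treated gun5, and the difference was -0.83 ± 0.17 (limma adjusted p = 0.00228, 0.000202 to 0.0145). AT3G15900 read 150.1, 108 and 133 against 225, 174 and 226 (-0.68 ± 0.12, limma adjusted p = 0.00117, 0.000382 to 0.0263). In each of these genes every treated gun1-9 array was below every treated gun5 array. AT2G04790 (-0.75, limma adjusted p = 0.0074, 0.00376 to 0.0425) and the pentapeptide-repeat lumenal protein AT5G53490 (-0.56, limma adjusted p = 0.00301, 0.000188 to 0.0413) were lower in gun1-9 as well. These 6 calls were kept under all 25 alternatives.

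Other named members were called lower without being recomputed under the alternatives, such as AT5G52970 (-0.55, limma adjusted p = 0.0016) and AT4G18810 (-0.41, limma adjusted p = 0.00295). Some of the calls that were recomputed depended on the setting or on single arrays. AT4G24930 was lower in treated gun1-9 by 0.62 (limma adjusted p = 0.0108, 0.000845 to 0.0521) and the call was lost without replicate 1 of that group. AT5G65840 was lower by 0.75 (limma adjusted p = 0.0431, 0.00806 to 0.163) and was kept under 15 of 25 alternatives. AT2G36145 was lower by 0.37 (limma adjusted p = 0.0385, 0.0188 to 0.154, kept under 18), and its call was lost with the replicate number as a block and in a fit on only the arrays compared.

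Higher in treated gun1-9 were AT2G35260, by 0.41 (limma adjusted p = 0.0391, 0.0116 to 0.116, kept under 18 of 25), and AT1G31920, by 0.54 (limma adjusted p = 0.0235, 0.00337 to 0.11, kept under 21). The unnamed probe set 260837_at had the largest difference of all members. It read 1393, 1744 and 1602 in treated gun1-9 and 470.1, 464 and 426 in treated gun5, a difference of 1.79 ± 0.09 (limma adjusted p = 3.88e-10, 4.94e-15 to 3.58e-05).

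The responses themselves were also set against each other, as the change of gun1-9 minus that of gun5. This test uses arrays that the rule used, and the rule bounds both changes. Of the members 5 were called with a higher response in gun1-9 and 11 with a lower one, or 9.41%, where 5.46% of all probe sets were called (2.39% and 3.06%). With dim probe sets left out, 16 members were called, beside 7.5% of the probe sets kept. The part of brightness in the members' share was not tested. With each array centred on its median the split was 2 higher and 13 lower, and 5.58% of all probe sets were called. The median over the members was -0.12, with a range from -1.01 to 1.57.

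Among members with a gene name, the lower responses of gun1-9 that were called are those of AT2G04790 (-1.01 ± 0.25, limma adjusted p = 0.0216, 0.0106 to 0.0651), AT3G15900 (-0.84 ± 0.18, limma adjusted p = 0.00735, 0.00236 to 0.0242), AT3G43540 (-0.78 ± 0.14, limma adjusted p = 0.00248, 0.00101 to 0.00981), AT1G20810 (-0.76 ± 0.17, limma adjusted p = 0.0146, 0.00576 to 0.0436) and AT5G53490 (-0.57 ± 0.16, limma adjusted p = 0.0482, 0.00419 to 0.126). AT3G15900, AT3G43540 and AT1G20810 were called under all 25 alternatives, AT2G04790 under 22 and AT5G53490 under 7. With the replicate number as a block AT5G53490 was not called. Among the same members a higher response of gun1-9 was called for AT2G35260 (0.67 ± 0.18, limma adjusted p = 0.0326, 0.00663 to 0.0815), which was kept under 14 of 25 alternatives and lost when arrays were centred on their medians.

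The 205 nuclear probe sets that fell at least 4-fold in Col-0 and at least 2-fold in both mutants had median changes of -3.26, -2.42 and -2.003. Their median mean intensity went from 187 to 11.8 in Col-0, against 447.9 to 77.5 for the members. In the comparison of the responses of gun1-9 and gun5, 12 of the 205 were called higher and 37 lower. Of the 170 members 5 and 11 were, and of all probe sets 2.39% and 3.06%. Both changes of a member had to lie above -1, while those of the 205 had no lower limit, so the counts are not directly comparable. The members and this group were separated by the mutants' responses, and no test was made of the difference between them. Another 81 nuclear probe sets fell at least 4-fold in Col-0 and at least 2-fold in gun1-9 only. Their median changes were -2.67, -1.27 and -0.69. The 37 that fell at least 2-fold in gun5 only had -3.24, -0.73 and -1.37.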

How the data were processed

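Each of 18 Affymetrix arrays of biotin-labelled total RNA has a column of linear, already normalized intensity in the table that the authors deposited. Per the submitters' processing notes GCRMA and MAS5 were used, without their roles or versions being stated, and the genome build is not given in the sources used here. GCRMA can press dim probe sets into a narrow band, which limits changes that end there. The 64 control probe sets among 22810 rows were not tested. All value columns were used. Platform annotation and a RefSeq gene table (TAIR10.1) gave names, and probe sets with several genes name none.

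Intensities were transformed to log2(intensity + 1), and limma 3.58.1 (R 4.3.3) fitted the means of the 6 groups. Tests were 2-sided, with Benjamini-Hochberg adjustment over 22746 probe sets within each contrast and calls under 0.05. The 3 arrays per group limit the precision. Tests were run on simulated data first. Figures were drawn with matplotlib 3.10.9.

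The members, the lists (15, with 55 of 289 genes measured) and the contrasts were chosen with earlier results of these data known. Genes were named when they had 1 gene per probe set and were among the 25 largest falls, had a symbol or list entry, stood near a threshold, lay above untreated in mutants, or were among the 5 largest called differences per direction. Other genes and the unnamed probe sets were picked after their values were seen. Alternatives were log2(intensity + 16), quantile normalization, centring, leaving out dim probe sets, eBayes with trend and robust settings, a fit on the arrays compared, a replicate block, other thresholds and each array left out.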

Additional observations from a re-analysis of the deposited data

Results flagged for a closer look

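Of the 16 members whose norflurazon responses were called different between gun1-9 and gun5 in the test of the difference itself, 6 have a gene name, and they are given here with the unnamed probe set of the largest difference. Values are the response of gun1-9 minus that of gun5 on the log2 scale. Among named members the lower responses of gun1-9 were -1.01 for AT2G04790, -0.84 for AT3G15900, -0.78 for AT3G43540, -0.76 for AT1G20810 and -0.57 for AT5G53490, whose call was kept under 7 of 25 alternatives and lost with the replicate block. Higher ones were 0.67 for AT2G35260, kept under 14 of 25, and 1.57 for the unnamed probe set 260837_at (limma adjusted p = 4.73e-07, 3.49e-10 to 1.59e-05 over 25 alternatives). In that probe set the untreated arrays read 1014, 1037 and 961 in gun1-9 and 866, 838 and 879 in gun5, so that treated gun1-9 stood above its untreated arrays and treated gun5 below them, while Col-0 went from 1095 ± 87.5 to 160.4 ± 9.02.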

How the results depend on the processing

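Each group mean rests on 3 arrays, and dim levels in treated Col-0 give only a lower bound on a fall. The rule gave 137 members with log2(intensity + 16), of which 123 were shared, 165 after quantile normalization, 190 after centring and 151 to 192 with an array left out. A limit of -1.5 in Col-0 gave 362 and a limit of -0.5 in both mutants 50. The median change in Col-0 was -2.19 with log2(intensity + 16), which shrinks changes of dim probe sets by construction. With eBayes trend and robust settings the calls among members were 2 for untreated gun1-9 against Col-0, 14 for untreated gun5 against Col-0, 1 between the untreated mutants and 28 for the responses of the mutants, beside 0.62%, 2.08%, 0.409% and 6.21% of all probe sets under that setting (0.396%, 1.67%, 0.163% and 5.46% without it), and the cause was not tested. With log2(intensity + 16) 1 member was called in untreated gun1-9 against Col-0, beside 0.347% of all probe sets. Leaving out each array in turn gave 0 to 1, 4 to 10, 0 to 1, 32 to 54 and 9 to 18 calls in the 5 comparisons, in the order untreated gun1-9 and gun5 against Col-0, untreated mutants, treated mutants and responses. In the same order the called share of all probe sets ran from 0.119% to 0.528%, 0.703% to 1.81%, 0.0659% to 0.211%, 9.62% to 13.7% and 4.24% to 5.61%. The count for the responses was 9 without replicate 1 of untreated gun1-9 and 10 without replicate 1 of treated gun1-9, or 1 or 2 of untreated gun5. The count for untreated gun5 against Col-0 was 5 without replicate 3 of untreated Col-0 or 2 of untreated gun5, and 4 without 3 of untreated gun5. No direction reversed among the results recomputed. Values of selected single genes were also recomputed, and each gene was counted once under each alternative. Calls were lost in 32 of 175 such recomputations for the responses, 29 of 300 for the treated mutants and 12 of 50 for untreated gun5. For the responses all losses fell on AT5G53490, AT2G35260 and AT2G04790. In Col-0, 25 of 312 recomputed changes moved by more than the spread between replicates.

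The replicate numbers were not taken to pair the arrays, because 7 of 45 same-numbered pairs had deviations correlated above 0.1 (range -0.113 to 0.19, median 0.046, against -0.017 for other pairs). As a hint the other way, 13 of 18 arrays correlated best, outside their group, with an array of their own number. With the replicate block the 5 counts were 1, 9, 0, 49 and 16, beside 0.466%, 1.79%, 0.207%, 13.4% and 5.85% of all probe sets. AT5G53490 (responses) and AT2G36145 (treated mutants) were among the calls lost. The planned counts of promoter motifs were not run, and promoter sequences were not used here.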
